A study of Mus musculus with 4 samples.

Results

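The heat shock proteins and cochaperones described here were 10 mouse genes, chosen by symbol: the HSP70 genes Hspa8, Hspa1a and Hspa1b, the HSP110 gene Hsph1, the HSP90 gene Hsp90aa1, the J domain cochaperones Dnaja1 and Dnajb1, the nucleotide exchange factor Bag3, and the mitochondrial chaperonin genes Hspd1 and Hspe1. Each matched 1 row of the deposited count table, so they were 10 of its 20837 genes. The study sequenced RNA of splenic regulatory T cells (Treg cells, CD4 T cells that express Foxp3 and restrain immune responses) in 4 libraries. In the cKO group (2 libraries, Foxp3YFP-CreKmt2dfl/fl) a Cre recombinase made under the control of Foxp3 can delete loxP-flanked Kmt2d, which encodes a histone methyltransferase, and the WT group (2 libraries, Foxp3YFP-CreKmt2d+/+) carries intact Kmt2d. Both groups carry the Foxp3 YFP-Cre allele. Mouse age is not given for these samples, and nothing in the labels ties the libraries of a group to different mice, so that p-values measure the spread between libraries, which may be technical.

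Heat shock proteins help other proteins fold, keep unfolded ones from clumping, and hand damaged ones on for degradation. HSP70 holds and releases its clients in a cycle driven by ATP: J domain proteins deliver the client and start the ATP step, and nucleotide exchange factors such as HSP110 and BAG proteins end the cycle. HSP90 takes over partly folded kinases and receptors, and the chaperonin of mitochondria folds imported proteins inside a closed chamber. Many of these genes are switched on together by heat shock factor HSF1 when cells are heated or stressed, while Hspa8 is the member that resting cells make at a steady high level.

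The libraries held 28442416 and 34225385 counts in cKO, against 35560491 and 30737750 in WT, and 13861 genes passed the filter on low counts. Kmt2d itself was not lower in cKO: it had 836 and 793 CPM (counts scaled to library size by TMM) in cKO against 721 and 704 CPM in WT, a log2 fold change of 0.19 (SE 0.05, edgeR adjusted p = 0.0375). Gene-level counts mix any deleted exons with the rest of Kmt2d, so they do not check the deletion, and the Kmt2d call was lost whichever library was left out. P2rx7, the purinergic channel named in the study's title, fell in cKO by 1.03 in log2 units (edgeR adjusted p = 0.00205), and Foxp3 fell by 0.59 (edgeR adjusted p = 0.00493). The extraction protocol in the labels speaks of cultured bone marrow macrophages from another knockout, against the tissue, cell type and genotype fields, which were followed here. Every defining marker of the T cell, Treg, macrophage, neutrophil, B cell and CD8 T or NK cell lists had counts in all 4 libraries. The 13 T cell markers summed to 5344 and 5774 CPM in cKO against 6781 and 6484 CPM in WT, with 9 lower and 0 higher. The 12 macrophage markers summed to 468 and 314 CPM in cKO against 394 and 624 CPM in WT, with 0 called. The 14 neutrophil markers summed to 671 and 1455 CPM in cKO against 81.1 and 213 CPM in WT, with 13 higher. Of 10 Treg markers 5 were lower and 1 was higher, and they summed to 2558 and 3159 CPM in cKO against 3739 and 2958 CPM in WT. The 10 B cell markers summed to 682 and 814 CPM in cKO against 440.3 and 528 CPM in WT, with 3 higher, and the 11 CD8 T and NK cell markers to 327 and 341 CPM in cKO against 179 and 218 CPM in WT, with 10 higher. In bulk RNA, fewer cells of a type and less RNA per cell cannot be told apart.

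The heat shock genes did not move as a block. Bag3, Dnaja1 and Dnajb1, which bind HSP70 and steer its cycle, fell in cKO, and Hspd1, the large subunit of the mitochondrial chaperonin, rose. Bag3 showed the largest of the 4 changes: its mean level in cKO was 0.587 times that in WT. Dnaja1 stood at 0.776 times, Dnajb1 at 0.856 times and Hspd1 at 1.20 times the WT level. The HSP70 gene Hspa8, the HSP110 gene Hsph1 and the HSP90 gene Hsp90aa1 did not pass the test.

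All 10 genes passed the filter and were tested, with 1 higher, 3 lower and 6 not past an adjusted p of 0.05. Across all genes tested 31.6% were called, 16.5% higher and 15.1% lower, so that a share of 40% among 10 genes lay near what any genes in these libraries gave. The cKO libraries were both above both WT libraries for 4 of the genes, where 35.1% of all genes did. They lay below both for 5, where 30.9% of all genes did, and only Hsph1 overlapped. The median log2 fold change of the 10 genes was -0.04, and that of all genes tested was 0.0003. The summed share of all reads taken by the 10 genes was 0.397% and 0.379% in cKO, against 0.355% and 0.390% in WT.

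**Figure D1:**
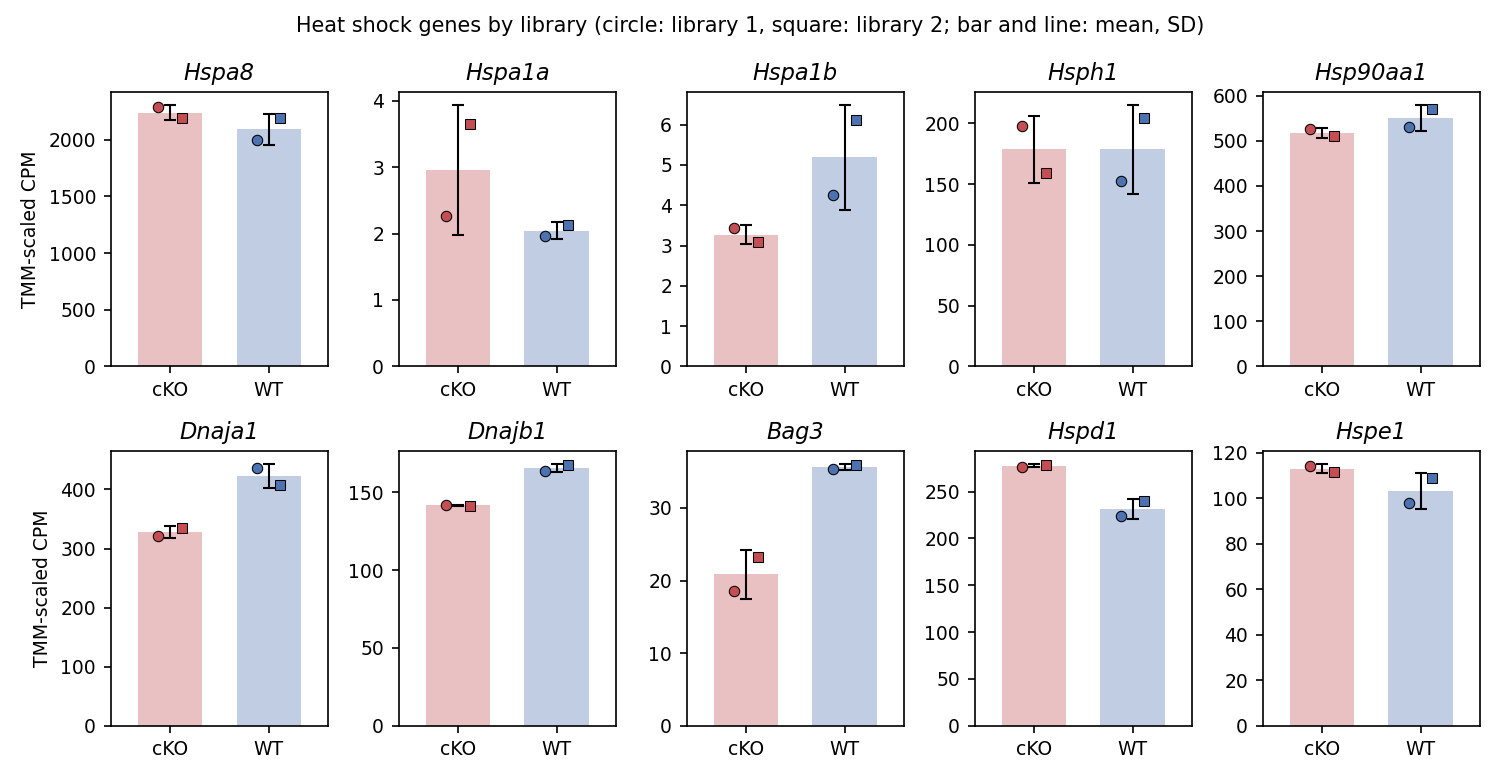
Expression of the 10 heat shock genes in TMM-scaled CPM (y axis from 0 in each panel), with cKO at the left of each panel and WT at its right. Points are the libraries, bars the means and lines the SD of 2 libraries. Bag3, Dnaja1 and Dnajb1 are lower in both cKO libraries than in either WT library, Hspd1 is higher in both, and the libraries of the groups overlap for Hsph1.

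**Figure D2:**
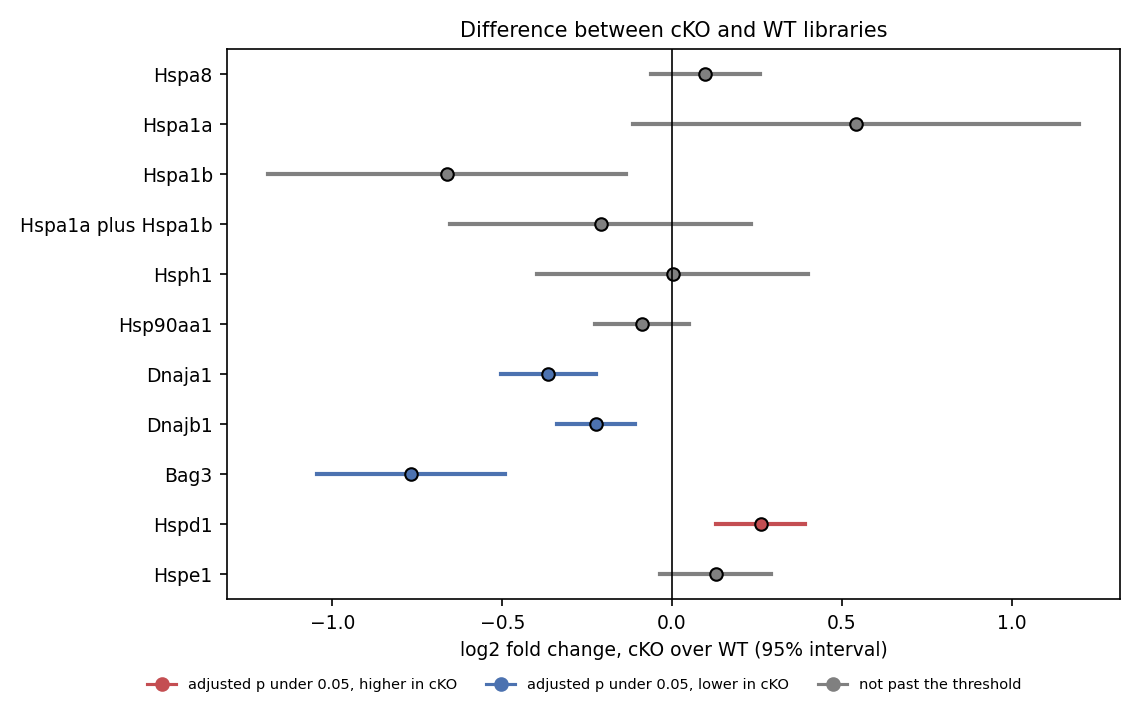
Log2 fold change of each heat shock gene, cKO over WT, with its 95% interval (x axis), and of the summed counts of Hspa1a and Hspa1b. Red marks adjusted p under 0.05 and higher in cKO, blue marks the same and lower in cKO, and grey marks genes that did not pass. Bag3 lies at -0.77, Dnaja1 at -0.37, Dnajb1 at -0.22 and Hspd1 at 0.26.

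Per length of transcript, Hspa8 stood far above the others. It had 935 ± 28.2 CPM per kb in cKO and 874 ± 57.9 CPM per kb in WT (SD, n = 2 each, as for all levels that follow). Hsp90aa1 came next with 158 ± 3.44 CPM per kb in cKO and 168 ± 8.60 in WT, followed by Hspe1 with 146 ± 2.60 in cKO and 133 ± 10.2 in WT. Hspd1, Dnaja1, Dnajb1 and Hsph1 lay between 47.0 and 115 CPM per kb in cKO and between 47.0 and 95.6 in WT. Bag3 was lower still, at 8.14 ± 1.31 CPM per kb in cKO and 13.9 ± 0.151 in WT. At the bottom, the stress-inducible Hspa1b had 1.17 ± 0.0856 CPM per kb in cKO and 1.85 ± 0.464 in WT, and Hspa1a had 0.997 ± 0.329 in cKO and 0.690 ± 0.0414 in WT. The order of the 10 genes was the same in both groups. Dnajb1 and Hsph1 did not differ beyond their spread in either group, and neither did Hspa1b and Hspa1a in cKO. These levels use the longest principal transcript of each gene, and where cells make a shorter form the level per kb is higher.

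Hspa8 encodes the constitutive HSP70 of the cytosol, which folds new proteins and uncoats clathrin vesicles. The gene lies at chr9:40801276-40805202 on the plus strand (GRCm38.p6, as for all coordinates given, and gene number 15481), and its introns hold small nucleolar RNA genes that have no row in the table. Hspa8 had 2285 and 2190 CPM in cKO, against 1994 and 2189.5 CPM in WT. WT library 1 was the lowest, and WT library 2 was level with cKO library 2, so that the groups were barely apart. The log2 fold change was 0.10 (SE 0.06, 95% interval -0.06 to 0.26, edgeR adjusted p = 0.324), and it was 0.03 without WT library 1, 0.06 without cKO library 1 and 0.17 without WT library 2.

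Hspa1a and Hspa1b encode the near-identical HSP70 proteins that heat and other stress induce. They are neighbours on chromosome 17, at chr17:34969359-34972156 for Hspa1a (gene number 193740) and chr17:34956429-34959238 for Hspa1b (gene number 15511), both on the minus strand, with start sites 12918 bases apart. The 250 bases before each start site are shown because they show how alike the copies are and because they carry the element through which HSF1 is known to act. Capitals mark a match to GAANNTTC, which is a pair of inverted units of that element and reads the same on both strands.
Hspa1a, chr17:34972157-34972406, minus strand: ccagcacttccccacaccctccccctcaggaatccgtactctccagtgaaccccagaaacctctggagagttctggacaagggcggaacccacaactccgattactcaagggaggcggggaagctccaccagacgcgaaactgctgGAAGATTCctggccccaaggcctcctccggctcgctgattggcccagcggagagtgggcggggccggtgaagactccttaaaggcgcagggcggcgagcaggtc
Hspa1b, chr17:34959239-34959488, minus strand: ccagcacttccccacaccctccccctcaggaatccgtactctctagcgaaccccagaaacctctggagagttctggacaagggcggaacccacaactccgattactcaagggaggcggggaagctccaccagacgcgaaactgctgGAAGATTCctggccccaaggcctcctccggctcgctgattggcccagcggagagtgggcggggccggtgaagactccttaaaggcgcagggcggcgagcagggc
Counted from the 5′ end of the printed stretch, with the base of Hspa1a given first, the stretches differ at 3 of 250 positions: C44T, T47C and T249G. The match lies at -104 from the start site in both. The transcripts are alike as well: 1350 of the 2868 windows of 100 bases in the Hspa1a transcript (47.1%) and 1350 of the 2704 in the Hspa1b transcript (49.9%) occur in the other one. How reads that match both copies were counted was not stated by any source used here, which leaves the split between them uncertain. In GENCODE, Hspa1a also overlaps the protein-coding gene Gm20481 on the opposite strand over 2225 bases, while no overlap is listed for Hspa1b. Gm20481 has no row among the deposited counts, and the use of strand in counting is not given in the sources used here.

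Hspa1a had 66 and 126 counts in cKO, against 68 and 65 counts in WT. Exact 95% Poisson intervals, which cover counting error only, were 51.0 to 84.0 and 105 to 150.02 in cKO, against 52.8 to 86.2 and 50.2 to 82.8 in WT. Scaled for depth these were 2.27 and 3.65 CPM in cKO, against 1.96 and 2.13 CPM in WT. cKO library 2 stood alone, and cKO library 1 lay just above the WT libraries. The log2 fold change was 0.54 (SE 0.27, 95% interval -0.12 to 1.20, edgeR adjusted p = 0.185), and it was 0.83 without cKO library 1 and 0.15 without cKO library 2.

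Hspa1b had 100 and 107 counts in cKO, against 148 and 186 counts in WT, which are 3.44 and 3.10 CPM in cKO, against 4.26 and 6.10 CPM in WT. The groups did not overlap, with cKO the lower. The log2 fold change was -0.66 (SE 0.21, 95% interval -1.19 to -0.14), and the adjusted p of edgeR's test was 0.0637, short of the threshold. Without WT library 1 it was -0.90 and past the threshold (edgeR adjusted p = 0.0419), as it was with no filter on low counts (edgeR adjusted p = 0.00938), and without WT library 2 it was -0.39.

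The copies lay on opposite sides of 0, and Hspa1b was lower relative to Hspa1a in both cKO libraries than in either WT library. There were 1.52 and 0.849 counts of Hspa1b for each count of Hspa1a in cKO, against 2.18 and 2.86 in WT. Summed, the copies had 166 and 233 counts in cKO, against 216 and 251 counts in WT, or 5.71 and 6.75 CPM in cKO, against 6.22 and 8.24 CPM in WT. The groups overlapped for the sum, whose log2 fold change was -0.21 (SE 0.18, 95% interval -0.65 to 0.23, edgeR adjusted p = 0.452). Without WT library 2 the sum lay at 0.0023, so its sign rested on that library. Hspa1a and Hspa1b together amounted to 0.250% and 0.308% of the Hspa8 counts in cKO, against 0.312% and 0.376% in WT.

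Hsph1 encodes the HSP110 protein that releases ADP from HSP70 and works with it to dissolve clumped proteins. The gene lies at chr5:149616843-149636498 on the minus strand (gene number 15505). It had 198 and 159 CPM in cKO, against 153 and 204 CPM in WT. The libraries of each group differed by more than the groups did: cKO library 1 and WT library 2 were high, and cKO library 2 and WT library 1 were low. The log2 fold change was 0.0015 (SE 0.16, 95% interval -0.40 to 0.40, edgeR adjusted p = 0.996), and with each library left out it ran from -0.19 to 0.23.

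The same order of libraries was then looked for in other genes, after the values of Hsph1 had been seen. The HSP90 cochaperone Stip1, which links HSP70 to HSP90, had 221 and 183 CPM in cKO, against 174 and 224 CPM in WT. Ahsa1, which speeds the ATP step of HSP90, had 118 and 103 CPM in cKO, against 100.4 and 120.03 CPM in WT, and Chordc1, another HSP90 partner, had 149 and 124 CPM in cKO, against 122 and 147 CPM in WT. cKO library 1 and WT library 2 were the high libraries for each of these. They were the high ones for 6 of the 10 heat shock genes and 13 of the 22 HSP90 cochaperones, against 35.8% of all genes tested. The 6 include Hsph1, from which the order was taken, and the 13 include Stip1, Ahsa1 and Chordc1, so these shares are not a separate check. Dnajb1, also among the 6, differed by only 0.0034 on the log2 scale in cKO and 0.03 in WT. These 2 libraries were also the high ones for 12 of 12 macrophage markers, such as Csf1r, the receptor for M-CSF, with 134 and 84.1 CPM in cKO, against 92.0 and 151 CPM in WT. Hsph1 differed between the high and the low library by 0.31 on the log2 scale in cKO and 0.42 in WT, and the macrophage markers by a median of 0.61 in each group. The same libraries were the high ones for 28 of the 30 proliferation genes, 11 of the 16 endoplasmic reticulum chaperones and 3 of the 3 other HSP90 genes, so that the order was not particular to macrophage markers. Other lists ran the opposite way: cKO library 2 and WT library 1 were high for 8 of 10 Treg markers and 9 of 13 T cell markers. That opposite order also held for 10 of 18 immediate early genes, against 4363 of the 13861 genes tested. Total counts were lower in cKO library 1 and WT library 2 (28442416 and 30737750) than in cKO library 2 and WT library 1 (34225385 and 35560491). The part of depth or of any of these lists in the Hsph1 values was not tested.

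**Figure D3:**
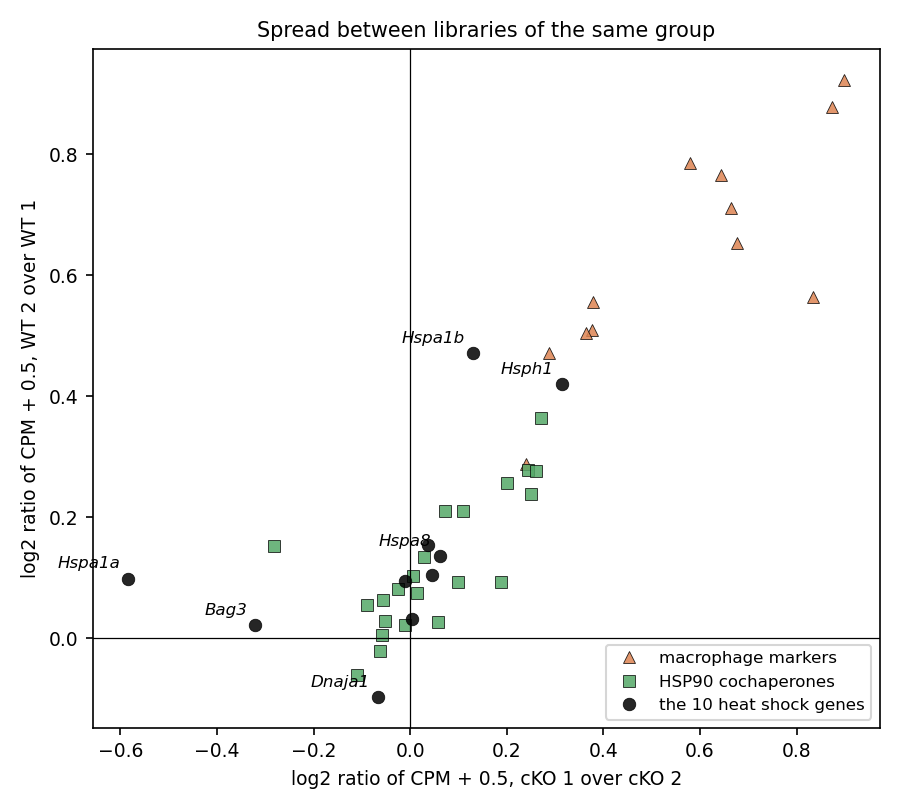
Spread within groups for the 10 heat shock genes (black circles), 22 HSP90 cochaperones (green squares) and 12 macrophage markers (orange triangles): the log2 ratio of CPM + 0.5 between cKO library 1 and cKO library 2 (x axis) and between WT library 2 and WT library 1 (y axis). All 12 macrophage markers and Hsph1 lie at the upper right, Hspa1a and Bag3 lie at the left, and Dnaja1 is the heat shock gene at the lower left.

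Hsp90aa1 encodes the inducible form of cytosolic HSP90. The gene lies at chr12:110691036-110696395 on the minus strand (gene number 15519). It had 526 and 510.3 CPM in cKO, against 531 and 571 CPM in WT. The cKO values were the lower ones, in library 1 by a small margin. The log2 fold change was -0.09 (SE 0.06, 95% interval -0.23 to 0.05, edgeR adjusted p = 0.296), and it was -0.14 without WT library 1 and -0.04 without WT library 2. Hsp90ab1, the constitutive form, had 2377 and 2313 CPM in cKO, against 2153 and 2351 CPM in WT, a log2 fold change of 0.06 (SE 0.06, edgeR adjusted p = 0.555).

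Dnaja1 encodes a J domain protein that carries unfolded clients to cytosolic HSP70. The gene lies at chr4:40722468-40734965 on the plus strand (gene number 15502). It had 321 and 336 CPM in cKO, against 437 and 408 CPM in WT. Both cKO libraries lay well below both WT libraries. The means were 328 ± 10.6 CPM in cKO and 423 ± 20.1 CPM in WT (SD, n = 2 each), and Dnaja1 fell by 0.37 in log2 units (SE 0.06, 95% interval -0.51 to -0.23, edgeR adjusted p = 0.00786). It passed the test with each library left out in turn, at adjusted p from 0.0151 to 0.0427 in edgeR. Its annotation overlaps Smu1 on the opposite strand over 608 bases and the non-coding gene Gm6297 over 249, and the use of strand in counting is not given in the sources used here. Smu1 had 2514 and 2966 counts in cKO, against 3104 and 2757 counts in WT, and Gm6297 had at most 20 counts in any library.

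Dnajb1, the cochaperone known as HSP40, lies at chr8:83608175-83612653 on the plus strand (gene number 81489). It had 142 and 141 CPM in cKO, against 164 and 167 CPM in WT. The groups were apart and the libraries within each were close. The means were 141.6 ± 0.240 CPM in cKO and 165 ± 2.58 CPM in WT (SD, n = 2 each), and Dnajb1 fell by 0.22 in log2 units (SE 0.05, 95% interval -0.34 to -0.11, edgeR adjusted p = 0.0173). The call was lost whichever library was left out, WT library 1, WT library 2, cKO library 1 or cKO library 2, at adjusted p from 0.0629 to 0.0951 in edgeR, while the fold change stayed between -0.24 and -0.21.

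Bag3 encodes a nucleotide exchange factor of HSP70 that, with small heat shock proteins, passes damaged proteins to autophagy. The gene lies at chr7:128523583-128546981 on the plus strand (gene number 29810). It had 538 and 802 counts in cKO, against 1227 and 1094 counts in WT, or 18.5 and 23.2 CPM in cKO, against 35.4 and 35.9 CPM in WT. Both cKO libraries lay far below both WT libraries, which were nearly equal. The means were 20.9 ± 3.34 CPM in cKO and 35.6 ± 0.387 CPM in WT (SD, n = 2 each), and Bag3 fell by 0.77 in log2 units (SE 0.11, 95% interval -1.05 to -0.49, edgeR adjusted p = 0.00675). With each library left out the fold change ran from -0.95 to -0.62 and passed the test each time, at adjusted p from 0.00228 to 0.0336 in edgeR. Hspb8, the small heat shock protein that BAG3 is known to bind, was near the limit of detection, with 0 and 0.0579 CPM in cKO, against 0 and 0.0328 CPM in WT.

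Set against Hspa8 in the same library, which takes the scaling out of the comparison, the HSP70 regulators kept this order. Bag3 counts were 0.809% and 1.06% of Hspa8 counts in cKO, against 1.77% and 1.64% in WT. Dnaja1 counts were 14.0% and 15.3% of Hspa8 counts in cKO, against 21.9% and 18.6% in WT, and Dnajb1 counts were 6.20% and 6.46% in cKO, against 8.20% and 7.63% in WT. The groups did not overlap for any of these 3 ratios. That followed from the CPM values given above and adds no separate check. Hspa8 was higher in both cKO libraries than in either WT library, by a small margin, and the 3 regulators were lower. For Hsph1 they overlapped, at 8.68% and 7.27% in cKO, against 7.66% and 9.34% in WT.

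Hspd1 and Hspe1 encode HSP60 and HSP10, the barrel and the lid of the mitochondrial chaperonin. They stand head to head on chromosome 1, Hspd1 at chr1:55077833-55088243 on the minus strand (gene number 15510) and Hspe1 at chr1:55088148-55091317 on the plus strand (gene number 15528), and in the GENCODE annotation they overlap by 112 bases. GENCODE lists 12 pseudogenes named after any of the 10 genes, of which 0 had a row in the table, and pseudogenes under other names were not counted. No source used here states how reads shared with pseudogenes were counted. Of the annotated start sites of Hspd1, the inner one, at 55087932, lies 216 bases from that of Hspe1, and the outer one, at 55088243, lies within Hspe1. A stretch of 30 bases between the inner site and that of Hspe1, which GENCODE places in an Hspd1 exon, is shown because it lies upstream of both and holds 3 overlapping matches to TTCNNGAA or GAANNTTC, marked by capitals, that join into a run of 4 units.
Hspe1 and Hspd1, chr1:55088053-55088082, plus strand: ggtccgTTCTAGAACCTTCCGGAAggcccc
Hspd1 had 277 and 279 CPM in cKO, against 224 and 239 CPM in WT. The groups did not overlap, with cKO the higher. The means were 278 ± 1.46 CPM in cKO and 232 ± 10.8 CPM in WT (SD, n = 2 each), and Hspd1 rose by 0.26 in log2 units (SE 0.05, 95% interval 0.13 to 0.39, edgeR adjusted p = 0.0161). The call was lost without cKO library 1, cKO library 2 or WT library 1, at adjusted p of 0.0739, 0.0707 and 0.0825 in edgeR, and the fold change then ran from 0.21 to 0.26.

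Hspe1 had 114 and 111 CPM in cKO, against 97.7 and 109 CPM in WT. The cKO values were the higher ones, with WT library 2 close to them. The log2 fold change was 0.13 (SE 0.07, 95% interval -0.04 to 0.29, edgeR adjusted p = 0.204), and it was 0.05 without WT library 1 and 0.21 without WT library 2. There were 2.42 and 2.50 counts of Hspd1 for each count of Hspe1 in cKO, against 2.29 and 2.20 in WT. The 30 proliferation genes, which mark dividing cells, summed to 2761 and 2606 CPM in cKO, against 1667 and 1878 CPM in WT, with 29 higher and 0 lower. The part of proliferation in the Hspd1 values was not tested.

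Upstream sequence was in the RefSeq promoter table for 8 of the 10 genes, all but Hspa8 and Hsp90aa1. In the 250 bases before an annotated start site, 6 of the 8 held GAANNTTC or TTCNNGAA, each of which reads the same on both strands. The same held for 14.5% of all 27025 genes listed there. The 6 are not 6 separate sites: Hspa1a and Hspa1b are near-identical copies with the same match, and Hspd1 and Hspe1 share 1 stretch. The 8 genes had 13 windows and all genes 32851, and a gene with more windows has more places for a match. The longer forms GAANNTTCNNGAA or TTCNNGAANNTTC, which contain the shorter ones, were found for Hspd1 and Hspe1, against 0.514% of all genes. For this pair it is again 1 stretch counted for 2 genes. The site of Dnaja1, which fell, and that of Hsph1, which did not pass the test, are shown to set beside those of the HSP70 and chaperonin genes, with the match in capitals. In GENCODE the Dnaja1 stretch overlaps exons of Dnaja1 and Gm6297, and the Hsph1 stretch overlaps exon sequence of Hsph1 itself.
Dnaja1, chr4:40722333-40722362, plus strand: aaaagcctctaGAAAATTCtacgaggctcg
Hsph1, chr5:149636351-149636380, minus strand: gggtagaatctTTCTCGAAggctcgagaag
Bag3 and Dnajb1, which also fell, held neither form in the window searched, and for that reason 250 bases before the Bag3 start site and 200 before the outer Dnajb1 start site are shown.
Bag3, chr7:128523333-128523582, plus strand: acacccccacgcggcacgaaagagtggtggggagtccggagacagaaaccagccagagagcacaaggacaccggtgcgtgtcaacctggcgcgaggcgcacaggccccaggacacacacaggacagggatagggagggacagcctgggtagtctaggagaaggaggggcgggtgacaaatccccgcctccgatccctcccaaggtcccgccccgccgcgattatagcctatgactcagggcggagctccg
Dnajb1, chr8:83607975-83608174, plus strand: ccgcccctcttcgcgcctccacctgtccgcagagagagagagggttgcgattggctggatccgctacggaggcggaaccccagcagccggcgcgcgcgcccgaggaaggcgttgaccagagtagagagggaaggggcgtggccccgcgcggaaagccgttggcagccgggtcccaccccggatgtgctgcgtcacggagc
The 3 genes that fell thus include 1 with a match and 2 with none. The longest run lies before Hspd1, which rose, and before Hspe1, which did not pass the test, and the window before the outer Hspd1 start site held no match. A match is a description of the letters and does not show that HSF1 binds there. A window with no match does not show that HSF1 leaves a gene alone, since only exact matches in 250 bases were looked for. Whether matches go with the direction of change was not tested.

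Around the 10 genes, 11 further lists of chaperones, cochaperones and their regulators held 126 tested genes, of which 15 rose, 18 fell and 93 did not pass. The share called was 26.2%, against 31.6% of all genes, and the median log2 fold change was -0.0034. By list the share called ran from 0% of 3 small heat shock protein genes to 44.4% of 9 other nucleotide exchange factors. Some genes are in more than 1 list, so that the counts by list overlap. With single libraries left out, 6 of the 33 called genes kept their call every time, 16 lost it every time and 11 lost it in some cases. The 6 were Dnajb2, Dnajb9, Dedd2, Ier5 and Sqstm1, which fell, and Pdia4, which rose.

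**Figure D4:**
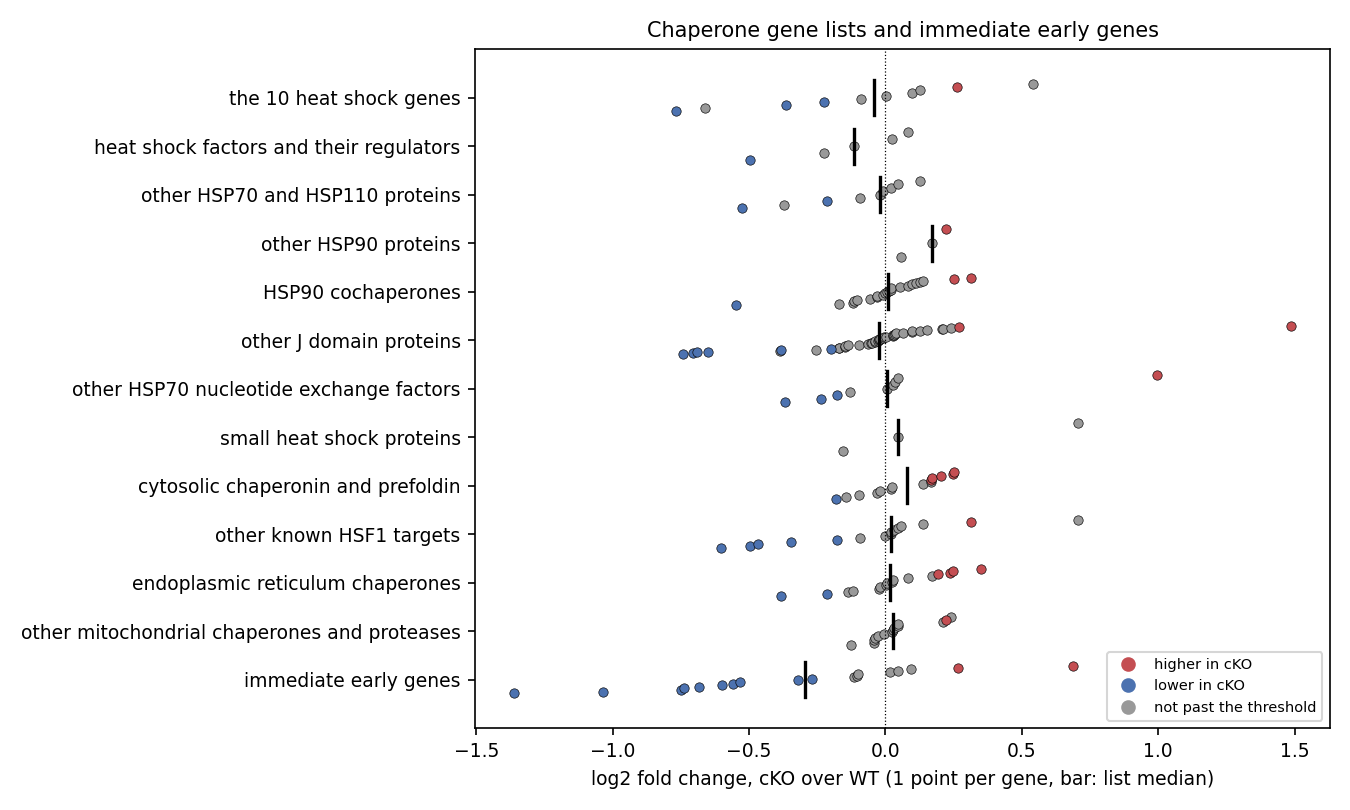
Log2 fold change, cKO over WT (x axis), of each tested gene in the 10 heat shock genes, the 11 further chaperone lists and the immediate early genes. Each point is a gene, red where it passed and was higher in cKO, blue where it passed and was lower, grey where it did not pass, and the black bar is the list median. Medians of the chaperone lists lie between -0.11 and 0.17, and that of the immediate early genes at -0.30.

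Among 5 tested heat shock factors and regulators, 1 fell and 0 rose. Hsf1, the main activator of heat shock genes, had 62.3 and 62.9 CPM in cKO, against 66.1 and 69.4 CPM in WT, with a log2 fold change of -0.11 (SE 0.05, edgeR adjusted p = 0.154). Hsf2 lay at 0.02 (SE 0.09, edgeR adjusted p = 0.901). The gene that fell was Ier5, whose protein is known to activate HSF1, with 262 and 303 CPM in cKO, against 406 and 392 CPM in WT (log2 fold change -0.50, SE 0.08, edgeR adjusted p = 0.00794).

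Among 15 tested genes that HSF1 is known to switch on besides the 10, 1 rose, 5 fell and 9 did not pass, with a median of 0.02. The 5 include Ier5, given above. Sqstm1, the autophagy receptor p62, had 216 and 242 CPM in cKO, against 324 and 310 CPM in WT, and fell by 0.47 (SE 0.07, edgeR adjusted p = 0.00660). Dedd2, a death effector domain gene, fell by 0.60 (SE 0.08, edgeR adjusted p = 0.00620). Ubb, which encodes ubiquitin, fell by 0.18 (edgeR adjusted p = 0.0394), a call lost whichever library was left out. Cacybp, which binds SIAH ubiquitin ligases, was the gene that rose, by 0.31 (edgeR adjusted p = 0.0112), and its call was lost without cKO library 1 or WT library 1.

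Among 9 other HSP70 and HSP110 genes, 0 rose and 2 fell. Hspa5, the HSP70 of the endoplasmic reticulum, fell by 0.21 (SE 0.05, edgeR adjusted p = 0.0328) and Hspa2 by 0.52 (SE 0.13, edgeR adjusted p = 0.0275). Both calls were lost whichever library was left out. Hspa9, the mitochondrial HSP70, had 224 and 241 CPM in cKO, against 232 and 218 CPM in WT, and overlapped between groups.

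Among 41 other J domain genes, 2 rose, 6 fell and 33 did not pass. Dnajb9, which is made under endoplasmic reticulum stress, had 137 and 146 CPM in cKO, against 192 and 177 CPM in WT, and fell by 0.38 (SE 0.06, edgeR adjusted p = 0.00906). Dnajb2 had 12.9 and 16.6 CPM in cKO, against 23.5 and 24.7 CPM in WT, and fell by 0.71 (SE 0.13, edgeR adjusted p = 0.0113). Dnajc6, the auxilin that works with HSC70 on clathrin coats, fell by 0.69 (edgeR adjusted p = 0.0254), a call lost whichever library was left out. Sec63, a J domain protein of the protein import channel in the endoplasmic reticulum, rose by 0.27 (edgeR adjusted p = 0.0266), a call that held only without WT library 2.

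Among 9 other nucleotide exchange factors of HSP70, 1 rose and 3 fell. Bag2, which inhibits the ubiquitin ligase CHIP, moved the opposite way to Bag3: it had 4.40 and 4.08 CPM in cKO, against 2.02 and 2.23 CPM in WT, and rose by 1.00 in log2 units (SE 0.16, edgeR adjusted p = 0.00907), a call lost without WT library 1 (edgeR adjusted p = 0.0533). Hspbp1 fell by 0.37 (SE 0.08, edgeR adjusted p = 0.0178), and its call was lost without cKO library 1 or WT library 1. Bag5 fell by 0.24 (edgeR adjusted p = 0.0364) and Bag6 by 0.18 (edgeR adjusted p = 0.0409), and both calls were lost whichever library was left out. Of 9 small heat shock protein genes 3 could be tested and 0 passed, and Hspb1 had 0.791 and 1.39 CPM in cKO, against 0.691 and 0.656 CPM in WT (edgeR adjusted p = 0.193).

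In the HSP90 system, 1 of 3 other HSP90 genes and 2 of 22 cochaperones were higher and 1 cochaperone was lower. The shares called were 33.3% and 13.6%, against 31.6% of all genes tested. Fkbp5, a cochaperone of steroid receptors that glucocorticoids induce, had 61.6 and 75.0 CPM in cKO, against 94.6 and 105 CPM in WT, and fell by 0.55 (SE 0.11, edgeR adjusted p = 0.0137), a call lost without WT library 2 (edgeR adjusted p = 0.0544). Ppid, a prolyl isomerase bound to HSP90, rose by 0.25 (edgeR adjusted p = 0.0292), and Cacybp is the other cochaperone that rose. Trap1, the HSP90 of mitochondria, had 92.8 and 91.2 CPM in cKO, against 77.6 and 80.0 CPM in WT, and rose by 0.22 (SE 0.05, edgeR adjusted p = 0.0209). The calls of Ppid and Trap1 were lost whichever library was left out. Trap1 was also the gene that rose among 14 other mitochondrial chaperones and proteases, with 0 lower and 13 not past the test.

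Among 14 genes of the cytosolic chaperonin, which folds actin and tubulin, and of prefoldin, its delivery complex, 5 rose, 1 fell and 8 did not pass, with a median of 0.08. Cct5 had 345 and 343 CPM in cKO, against 285 and 293 CPM in WT, and rose by 0.25 (SE 0.05, edgeR adjusted p = 0.0120), a call that held only without WT library 2. Vbp1 rose by 0.25 (edgeR adjusted p = 0.0185), with the same exception. Tcp1 rose by 0.20 (edgeR adjusted p = 0.0233) and Cct2 by 0.17 (edgeR adjusted p = 0.0395), and both calls were lost whichever library was left out. In the endoplasmic reticulum, 4 of 16 chaperones rose and 2 fell, and these 2 were Hspa5 and Dnajb9, given above. Pdia4, a disulfide isomerase, had 178 and 177 CPM in cKO, against 132 and 146 CPM in WT, and rose by 0.35 (SE 0.06, edgeR adjusted p = 0.0109), and the lectin chaperone Canx rose by 0.25 (edgeR adjusted p = 0.0151), a call that held only without WT library 2.

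The 18 immediate early genes, which activation and handling of cells switch on within minutes, did not all move the same way. In cKO 10 were called lower and 2 higher, and their median log2 fold change was -0.30. Among all genes tested 15.1% were called lower and 16.5% higher. Jun rose by 0.27 (edgeR adjusted p = 0.0132) and Ier3 by 0.69 (edgeR adjusted p = 0.0134). Fos lay at 0.05, Fosb at -0.10, Egr1 at -0.11, Atf3 at 0.10, Nr4a1 at 0.01 and Klf6 at -0.11. None of these 6 was called. Junb had 1463 and 1897 CPM in cKO, against 3642 and 3243 CPM in WT, and fell by 1.03 (SE 0.13, edgeR adjusted p = 0.00543). The 18 genes summed to 9078 and 10663 CPM in cKO, against 13825 and 12798 CPM in WT. Within cKO, library 2 was the higher for this sum and for Bag3, with 23.2 against 18.5 CPM, and within WT library 1 was the higher for the sum while Bag3 was level. The part of these genes, and of the lower T cell and higher neutrophil markers given above, in the values of Bag3, Dnaja1 and Dnajb1 was not tested.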

How the data were processed

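The values are raw read counts per gene, deposited by the authors as a single table. The submitters' processing notes name mm10 as the genome build, and the aligner, counter, annotation and strand setting were not stated by any source used here. Genes were filtered with filterByExpr (minimum count 10, minimum total 15), scaled by TMM factors and compared between groups with the quasi-likelihood test of edgeR 4.0.16 in R 4.3.3, with group as the only term. Tests were 2-sided, p-values were adjusted by Benjamini and Hochberg's method across the 13861 genes, and genes with an adjusted p under 0.05 were called. Each SE was the size of the log2 fold change over the root of F, and 95% intervals used the total degrees of freedom of the fit and no adjustment for many genes. At these depths 1 read was worth 0.0288 to 0.0344 CPM. The test was checked on simulated data. Lengths came from GENCODE M21 principal transcripts. Gene coordinates and upstream sequences came from RefSeq (GRCm38.p6, the assembly of mm10). The 10 genes and all lists were chosen with earlier results of these data known. From each further list, up to 4 called genes with the smallest p were named, and where 5 or fewer passed in a direction others were named after their values were seen. Alternatives were scaling by RLE or upper quartiles, other filters, DESeq2 1.42.0, limma-voom (limma 3.58.1), a threshold of 0.10, a replicate block and leaving out each library. A result that needs a withheld item is not reported here.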

Additional observations from a re-analysis of the deposited data

How the results depend on the processing

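Bag3 and Dnaja1 passed the test, in the same direction, under all alternatives run, including every leave-out. Counts of calls depended on the fit. Nothing in the labels says that the replicate numbers pair the samples. Across 13861 genes the difference between cKO libraries 1 and 2 correlated at -0.32 with that between WT libraries 1 and 2. With 2 libraries in each group this correlation cannot decide whether the numbers pair samples. With the replicate number as a block, 0 of the 10 genes rose and 2 fell, 1151 genes rose and 1141 fell in all, and 3 rose and 7 fell in the further chaperone lists. A crossed replicate block, chosen after seeing the data, gave 3 higher and 4 lower of the 10 genes, 3520 higher and 3193 lower of all genes, and 25 higher and 31 lower in the further lists. DESeq2 called 1301 genes higher and 1575 lower, and 8 higher and 11 lower in the further lists. With single libraries left out, 0 to 1 of the 10 genes rose and 2 to 3 fell, 886 to 1375 of all genes rose and 983 to 1372 fell, and 1 to 8 genes rose and 6 to 8 fell in the further lists, with fewer libraries in each fit. The summed counts of Hspa1a and Hspa1b gave -0.40 to 0.0023 in these fits. Hsph1 changed sign to -0.0169 with RLE scaling, -0.0167 with DESeq2 and -0.0055 with no filter, and ran from -0.19 to 0.23 with single libraries left out (-0.19 without WT library 1 and -0.17 without cKO library 1). The cause was not tested. Hspd1 (adjusted p = 0.0589 in edgeR) and Dnajb1 (adjusted p = 0.0809 in edgeR) missed the threshold with the block. Kmt2d missed it with RLE scaling (log2 fold change 0.17, adjusted p = 0.0556 in edgeR) and with the block (log2 fold change 0.19, adjusted p = 0.130 in edgeR). With single libraries left out Kmt2d also missed it, at log2 fold changes of 0.15 to 0.23. Hspa1a and Hspa1b had no value under the filter of 5 CPM in 2 libraries. At 65 to 186 counts in a library, Hspa1a and Hspa1b had the largest standard errors of the 10 genes.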
